A study of Homo sapiens with 18 samples.

Results

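The 49 genes described here carry out the entry of a cell into S phase and the copying of its DNA: cyclin E, CDC25A and E2F factors, the licensing proteins, the MCM helicase and its activators, the replicative polymerases, the sliding clamp and its loader, and factors of lagging-strand synthesis, chromatin assembly and the replication checkpoint. They were chosen by name, as the rows of the poly(A) RNA table whose symbol is on a list of these factors. That list was drawn up with earlier results of these data known. All 49 had a row among the 47021 genes of the table, and all 49 were among the 14732 genes with enough counts to be tested. The cells are DLD1, an established human colorectal adenocarcinoma line.

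Poly(A) RNA was sequenced from DLD1 cells that carried guide 3 against the zinc-finger gene ZNF692 (sgZ3), guide 1 against the same gene (sgZ1), or a control guide (sgC), with 3 libraries per guide. All cells, controls included, had been infected with lentivirus and selected as stable lines with 10 µg/ml puromycin. The sgZ3 and sgZ1 lines are labelled as ZNF692 knockouts and the sgC line as wild type. The labels do not say whether the cells of a guide are a clone or a pool, nor whether replicates are separate cultures, and every p-value below therefore rests on a spread between libraries that could be technical. An effect of the guide's target and any other property of the cells that carry it cannot be told apart.

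In dividing cells, cyclin D-dependent and cyclin E-dependent kinases phosphorylate the RB protein and release E2F factors, which switch on the genes needed for DNA synthesis, cyclin E and E2F genes among them. In G1 the origin recognition complex, CDC6 and CDT1 load the MCM2-7 helicase onto origins. In S phase the kinases CDK2 and CDC7-DBF4 bring in CDC45 and GINS, and the helicase starts to unwind DNA. Polymerase alpha-primase lays down primers, RFC loads the PCNA clamp, and polymerases epsilon and delta extend the new strands. Colorectal epithelium renews itself from dividing crypt cells, and lines made from its tumours divide continuously in culture.

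Total counts were 16044224 to 24535642 per library. ZNF692 mRNA itself was not lower in either line labelled knockout: it was at 7.92, 8.08 and 6.29 CPM (counts scaled to a common library total) in sgZ3 libraries and 9.64, 9.82 and 11.5 CPM in sgZ1 libraries, against 7.01, 6.32 and 6.18 CPM in sgC libraries. By the test described below ZNF692 was called higher in sgZ1 (1.585-fold, adjusted p = 0.00475) and not called in sgZ3 (1.14-fold, adjusted p = 0.319), each against sgC. Over both guides it was called higher (1.344-fold, adjusted p = 0.0221), and it was lower in sgZ3 than in sgZ1 (log2 −0.475, adjusted p = 0.0253). An mRNA level alone does not show whether a coding sequence has been disrupted. Of 12 colorectal epithelial markers 11 were tested, with summed levels of 11750 to 12730 CPM in sgZ3, 9288 to 10240 CPM in sgZ1 and 9709 to 10810 CPM in sgC libraries. Against sgC, 5 of the 11 were called higher and 0 lower in sgZ3, and 0 higher and 5 lower in sgZ1, by the test described below. In sgZ3 against sgZ1, 8 were higher and 0 lower, against 12.8% and 15.8% of all tested genes. The sum of 10 mesenchymal markers was 117 CPM in sgZ3 replicate 3 and 114 CPM in sgZ1 replicate 2, and 9.47 to 13.7 CPM in the other 7 libraries. Thus sgZ3 replicate 3 and sgZ1 replicate 2 stood apart. The counts of members called and some single genes are also given for the other 7. Of those markers COL1A1, SPARC and VIM carried most of the excess, while LUM and DCN had at most 2 counts in any library. Leukocyte markers summed to 4.71 to 6.55 CPM and endothelial markers to 2.01 to 3.67 CPM over all 9 libraries.

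Promoter sequences are shown first, for the 5 members that rose most over both guides and have an entry in the RefSeq promoter table (GRCh38.p14), because several of these genes are textbook E2F targets and their promoters can be compared letter by letter. Each runs 5′ to 3′ on the gene's strand, covering 300 bases around the start given by that table, most of them before it. The outermost gene starts of GINS2 and FEN1 in GENCODE lie outside these windows, so other starts were not searched. The windows are chr16:85688905-85689204 on the minus strand for GINS2, chr11:61792661-61792960 on the plus strand for FEN1, chr19:29811741-29812040 on the plus strand for CCNE1, chr20:33686336-33686635 on the minus strand for E2F1 and chr12:109097347-109097646 on the plus strand for UNG. Capitals mark matches, on either strand, to the E2F octamers TTTCCCGC, TTTCGCGC, TTTGCCGC and TTTGGCGC, to the NF-Y box CCAAT and to the E-box CACGTG.
GINS2: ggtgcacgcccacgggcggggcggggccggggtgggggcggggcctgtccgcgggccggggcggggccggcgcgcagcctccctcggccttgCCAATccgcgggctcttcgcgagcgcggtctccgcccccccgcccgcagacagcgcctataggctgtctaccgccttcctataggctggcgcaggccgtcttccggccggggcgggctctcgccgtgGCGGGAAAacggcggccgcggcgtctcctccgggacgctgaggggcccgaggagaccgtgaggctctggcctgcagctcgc
FEN1: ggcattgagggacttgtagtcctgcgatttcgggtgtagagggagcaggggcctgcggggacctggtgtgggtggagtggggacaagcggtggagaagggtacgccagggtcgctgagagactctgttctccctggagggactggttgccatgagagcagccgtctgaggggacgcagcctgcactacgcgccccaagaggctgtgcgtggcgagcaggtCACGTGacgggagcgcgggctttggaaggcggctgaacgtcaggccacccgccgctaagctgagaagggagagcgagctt
CCNE1: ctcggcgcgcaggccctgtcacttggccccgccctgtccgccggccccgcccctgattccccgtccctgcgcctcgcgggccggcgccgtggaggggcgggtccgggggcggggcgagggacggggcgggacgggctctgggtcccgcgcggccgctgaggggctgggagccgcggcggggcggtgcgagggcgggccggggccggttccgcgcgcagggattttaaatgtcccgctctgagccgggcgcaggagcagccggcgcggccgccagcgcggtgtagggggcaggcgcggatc
E2F1: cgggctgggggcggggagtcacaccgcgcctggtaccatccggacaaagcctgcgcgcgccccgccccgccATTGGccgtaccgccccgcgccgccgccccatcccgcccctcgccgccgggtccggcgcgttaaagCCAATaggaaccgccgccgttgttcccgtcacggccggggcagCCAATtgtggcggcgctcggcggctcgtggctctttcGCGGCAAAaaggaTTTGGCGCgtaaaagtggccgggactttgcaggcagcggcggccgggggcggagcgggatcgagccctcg
UNG: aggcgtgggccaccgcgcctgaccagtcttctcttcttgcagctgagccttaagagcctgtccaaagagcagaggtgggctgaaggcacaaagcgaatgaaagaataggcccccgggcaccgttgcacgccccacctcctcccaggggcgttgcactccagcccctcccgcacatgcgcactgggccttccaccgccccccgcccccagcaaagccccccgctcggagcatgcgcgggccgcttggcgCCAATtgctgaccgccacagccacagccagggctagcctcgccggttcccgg

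GINS2 held 1 E2F octamer and 1 CCAAT box, E2F1 held 2 E2F octamers and 3 CCAAT boxes, UNG held 1 CCAAT box, FEN1 held 1 E-box, and CCNE1 held none of these letters in this window. Over the 42 members with a window (CCNE2, E2F8, MCM4, MCM5, GINS4, POLD3 and RPA2 have none in the table, and the first window was taken for the 9 members with several), 21 held an E2F octamer, 50% of them. The share was 3.31% of all 35116 windows and 5.37% of the 10907 windows of tested genes. CCAAT was found in 23 members (54.8%), against 34.6% of all windows and 36.4% of the windows of tested genes. CACGTG was found in 5 members (11.9%), against 7.26% and 9.98%, so its share was near that of tested genes. Each strand was searched, CACGTG reads the same on both strands and was counted once, and E2F octamers that overlap on opposite strands, as in MCM2 and MCM6, were each counted. Of the members that rose over both guides, 15 of 29 with a window held an E2F octamer, and of those that were not called 6 of 13 did. A match is a run of letters and was not tested for binding.

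Most replication and G1/S genes were higher when the lines labelled knockout were averaged and set against the control line. Fold changes and adjusted p-values come from edgeR's quasi-likelihood test over all 14732 genes with Benjamini-Hochberg adjustment, and a gene is called at an adjusted p under 0.05. Over both guides against sgC, 33 of the 49 members rose (67.3%) and 0 fell, while 18.6% of all tested genes were called higher and 14.6% lower. Since the members were chosen with earlier results of these data known, this contrast is a description. DESeq2 called 36 higher and 0 lower, against 2932 genes higher and 1978 lower of the 15456 it tested. At an unadjusted p under 0.05 both tools also had 0 members lower. With the 7 libraries that carry few mesenchymal transcripts 37 members were higher and 2, DBF4 and PRIM1, lower, against 23.1% of tested genes higher and 26.6% lower, and with library totals alone as the scaling 31 were higher and 1, PRIM1, lower, against 12.8% higher and 22.2% lower. The median log2 fold change of the 49 members was 0.49 (range −0.14 to 1.03), that of all tested genes was 0.01, and 46 members were above 0. Single members were modest in size: the highest were GINS2 and FEN1 at about 2-fold (2.05-fold and 2.04-fold), CCNE1 at 1.99-fold, E2F1 at 1.85-fold and UNG at 1.82-fold. In bulk RNA, more cells in a given phase and more RNA per cell cannot be told apart.

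Members rose under each guide. In sgZ3 against sgC 29 members rose and 1, PRIM1, fell, with a median log2 fold change of 0.51 and a background of 19.2% of tested genes called higher and 17.1% lower. In the 7 libraries 29 were higher in sgZ3 and 4 lower (PRIM1, DBF4, POLA1 and CLSPN), against 23.9% of tested genes higher and 31.3% lower. In sgZ1 against sgC 30 rose and 0 fell (0 lower also at an unadjusted p under 0.05 and by DESeq2), with a median of 0.44 and a background of 15.5% higher and 10.3% lower. In the 7 libraries 35 were higher in sgZ1 and 0 lower, against 22% of tested genes higher and 17.5% lower. Both comparisons use the same 3 sgC libraries, so they are not independent. In 29 members every sgZ3 and every sgZ1 library lay above every sgC library, against 11.9% of all tested genes.

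The libraries of a group sat close together over the 49 genes taken as a whole. Relative to the mean of the sgC libraries, the median member stood at 0.57, 0.50 and 0.49 (log2) in sgZ3 replicates 1, 2 and 3, at 0.39, 0.53 and 0.37 in sgZ1 replicates, and at −0.08, 0.08 and 0.02 in sgC replicates. All 6 libraries with a ZNF692 guide were above all 3 sgC libraries on this measure, and sgZ1 replicate 2 was inside the sgZ3 range. Gene by gene, the map of members by library shows this split for the 29 members counted above, and the other members have at least 1 library of a ZNF692 guide within or below the sgC range.

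**Figure D1:**
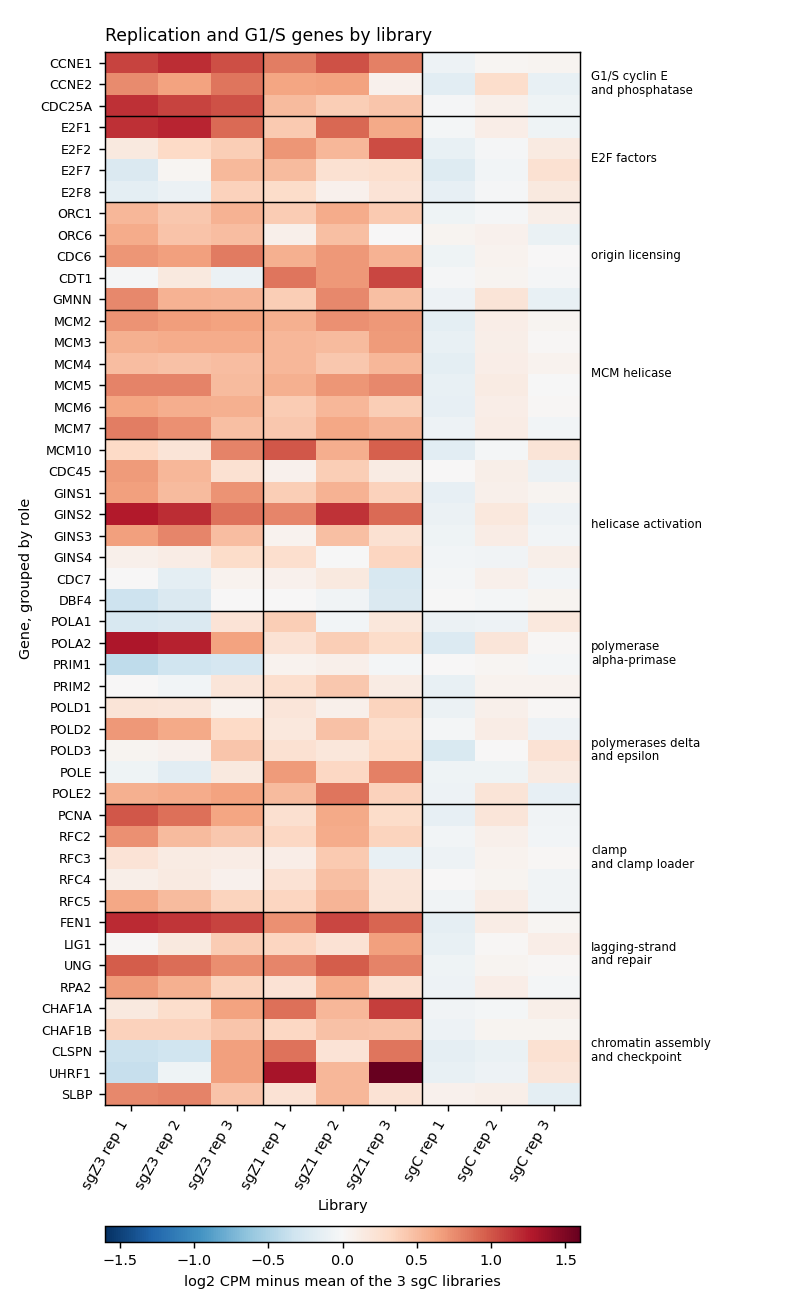
Log2 CPM of the 49 genes (rows, grouped by role) in each of the 9 libraries (columns), minus the mean of the 3 sgC libraries, on a colour scale from blue (lower) to red (higher). The MCM2-7 rows are red in all 6 sgZ3 and sgZ1 libraries, whereas UHRF1, CDT1 and POLE are red mainly in sgZ1 and POLA2 and CDC25A mainly in sgZ3.

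The cyclin E genes and CDC25A, which act at the G1/S switch itself, all 3 rose over both guides. CCNE1, one of the paralogous E-type cyclins that activate CDK2, was at 23.6, 25.2 and 22.7 CPM in sgZ3 libraries and 19.5, 22.6 and 19.4 CPM in sgZ1 libraries, against 10.5, 11.4 and 11.4 CPM in sgC libraries. No library of either ZNF692 guide overlapped the sgC libraries, and the rise was 0.99 ± 0.0972 (log2 fold change ± SE, adjusted p = 8.64e-05). CCNE2, its paralogue, was at 18.9, 17.4 and 20.2 CPM in sgZ3 and 17.3, 17.4 and 11.7 CPM in sgZ1, against 9.89, 13.6 and 10.3 CPM in sgC libraries. Here sgZ1 replicate 3 lay within the sgC range, and the rise of 0.61 ± 0.151 (adjusted p = 0.0106) was called in sgZ3 (adjusted p = 0.0065) and not in sgZ1 (adjusted p = 0.0635), with sgZ3 against sgZ1 not called (0.28 ± 0.168, adjusted p = 0.226). Without sgC replicate 1 or without sgC replicate 3 the CCNE2 call over both guides was lost, at an adjusted p of up to 0.0739. In sgZ1 CCNE2 was called in 6 of 20 alternatives. Of its 4397 exon bases 1633 lie opposite exons of INTS8 and AC087752.4, and since how strand was handled in counting is not given, reads of such overlapping genes cannot be told apart.

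CDC25A, the phosphatase that removes inhibitory phosphates from CDK2, was the member of this group that differed between guides. Its levels were 51.8, 48.6 and 46.8 CPM in sgZ3 and 32.8, 30.3 and 31.3 CPM in sgZ1, against 22.8, 24.5 and 22 CPM in sgC libraries. The 3 groups did not overlap: sgZ3 was 2.13-fold over sgC (adjusted p = 7.92e-05), sgZ1 was 1.36-fold over sgC (adjusted p = 0.00411), and sgZ3 was 1.56-fold over sgZ1 (log2 0.64 ± 0.0914, adjusted p = 0.00034). The CDC25A difference between guides was called in all 20 alternatives tried.

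Of the E2F factors, the activators E2F1 and E2F2 rose over both guides and the repressors E2F7 and E2F8 were not called. E2F1 was at 59.8, 62 and 49.9 CPM in sgZ3 and 35.7, 50.2 and 40.6 CPM in sgZ1, against 25.9, 28.5 and 25.4 CPM in sgC libraries. Both ZNF692 guides lay clear of sgC, with sgZ1 replicate 2 just above the lowest sgZ3 library, and the rise was 0.89 ± 0.119 (log2, adjusted p = 0.000413). E2F2 was at 16.4, 18.4 and 19.4 CPM in sgZ3 and 24.2, 21.4 and 30.4 CPM in sgZ1, against 13.6, 14.6 and 16.4 CPM in sgC libraries. Its order of groups was the other way round from E2F1, with sgZ1 highest. E2F2 rose in sgZ1 (0.77 ± 0.14, adjusted p = 0.00185) and was not called in sgZ3 (0.29 ± 0.142, adjusted p = 0.131), and its call over both guides (0.53, adjusted p = 0.0081) was lost without sgC replicate 1 (adjusted p = 0.06). E2F8 was at 16, 16.7 and 23.1 CPM in sgZ3 and 22, 18.8 and 20.8 CPM in sgZ1, against 16.3, 17.7 and 19.9 CPM in sgC libraries, so that the groups overlapped throughout (0.12 ± 0.128, adjusted p = 0.471). E2F7, at 7.13 ± 1.95 CPM in sgZ3, 8.21 ± 0.844 CPM in sgZ1 and 6.51 ± 1.06 CPM in sgC (SD, n = 3 each), also overlapped.

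All 5 licensing genes among the 49 were called higher over both guides, with log2 fold changes of 0.36 to 0.67. Other subunits of the origin recognition complex, which are not among the 49, were not called. ORC2 was at −0.09, ORC3 at −0.08, ORC4 at −0.11 and ORC5 at 0.11 (adjusted p = 0.374 to 0.514). CDC6, the loading ATPase, was at 131, 126 and 143 CPM in sgZ3 and 119.5, 129.7 and 118 CPM in sgZ1, against 77, 83.9 and 80.7 CPM in sgC libraries. Every library of both ZNF692 guides was well above the highest sgC library, and the rise was 1.59-fold (0.67 ± 0.0787, adjusted p = 0.000222). ORC1, the largest subunit of the origin recognition complex, rose by 0.49 ± 0.0835 (adjusted p = 0.00143), and GMNN, the inhibitor of CDT1, by 0.58 ± 0.112 (adjusted p = 0.00273), each called in both guides.

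ORC6, the smallest ORC subunit, was at 29.6, 27 and 27.7 CPM in sgZ3 and 20.8, 27.3 and 19.7 CPM in sgZ1, against 20.2, 20.6 and 18.2 CPM in sgC libraries. Of its sgZ1 libraries replicate 1 lay just above and replicate 3 within the sgC range, and replicate 2 lay within the sgZ3 range. ORC6 was the weakest call of the group (0.36 ± 0.113, adjusted p = 0.0285), and it was lost without sgZ3 replicate 1, without any 1 of the 3 sgC libraries and with library totals alone, at an adjusted p of up to 0.142. CDT1, the loading factor that GMNN inhibits, was high in sgZ1: 47.2, 53.5 and 44.8 CPM in sgZ3 and 86.6, 77.5 and 101 CPM in sgZ1, against 47.2, 49.1 and 47.2 CPM in sgC libraries. The sgZ1 libraries lay clear of all others while sgZ3 and sgC overlapped. CDT1 rose in sgZ1 (0.88 ± 0.112, adjusted p = 0.000136), was at 0.02 ± 0.112 in sgZ3 (adjusted p = 0.906), and sgZ3 was 0.55-fold of sgZ1 (−0.86 ± 0.112, adjusted p = 0.000163), a difference called in all 20 alternatives.

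The 6 subunits of the MCM2-7 helicase all rose in each line. Log2 fold changes over both guides were 0.49 to 0.69, and each of the 6 was called in sgZ3 (0.48 to 0.70) and in sgZ1 (0.44 to 0.68). MCM5, with the largest log2 fold change, was at 235, 236 and 193 CPM in sgZ3 and 201, 221 and 230.4 CPM in sgZ1, against 125, 148 and 135 CPM in sgC libraries (0.69 ± 0.0941, adjusted p = 0.000441). MCM4, with the smallest, was at 362, 355 and 361 CPM in sgZ3 and 372, 347 and 371 CPM in sgZ1, against 230.1, 276 and 268 CPM in sgC libraries (0.49 ± 0.077, adjusted p = 0.000987). For all 6 subunits no library of a ZNF692 guide overlapped sgC. Differences between sgZ3 and sgZ1 were −0.02 to 0.14 (log2) and 0 of 6 were called by edgeR or DESeq2, also at an unadjusted p under 0.05. In the 7 libraries MCM7 was called higher in sgZ3 than in sgZ1 (0.25, adjusted p = 0.0216). All 6 were called over both guides in each of the 20 alternatives.

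Levels per length, in CPM per kb of exon, are needed to set subunits beside each other. The length is that of all annotated exons of a gene merged, whichever transcript is expressed. It was 7338 nt for MCM5, 6973 nt for MCM4 and 3650 nt for MCM3, so the order of subunits depends on it. MCM7 stood at 234 ± 28 in sgZ3, 212 ± 14 in sgZ1 and 147 ± 11 in sgC (SD, n = 3 each), and MCM5, the lowest of the complex, at 30.1 ± 3.3, 29.6 ± 2.0 and 18.5 ± 1.6 in the same groups. The order MCM7, MCM6, MCM2, MCM3, MCM4, MCM5 was the same in all 3 groups, although MCM6 and MCM2 in sgZ1 (91.8 ± 4.6 and 86.7 ± 5.3) and MCM2 and MCM3 in sgC (54.7 ± 5.1 and 52.1 ± 3.8) lay within their spread. Parts of the MCM2 and MCM7 exons lie opposite exons of TPRA1 and AP4M1 (1158 and 392 nt), so their levels are less certain.

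**Figure D2:**
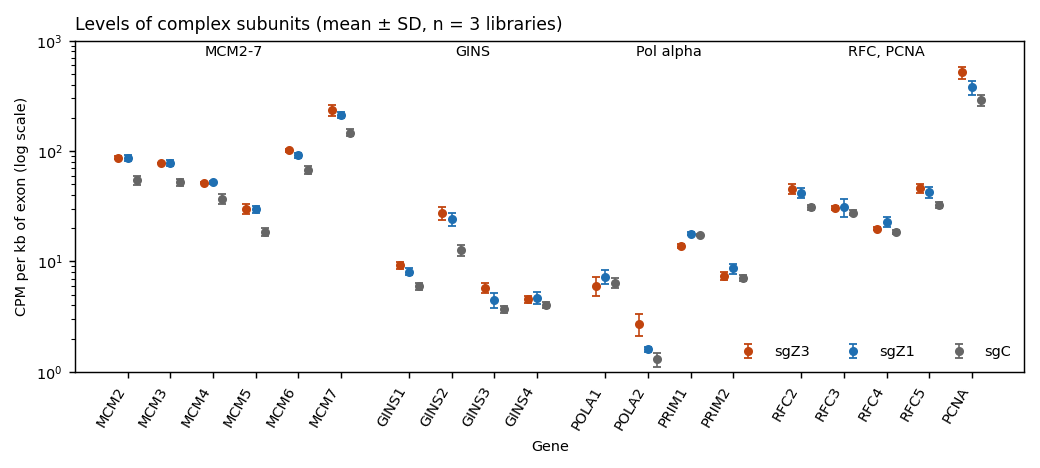
Mean level per kb of exon (log axis, CPM per kb, bars are SD over 3 libraries) of subunits of MCM2-7, GINS, polymerase alpha-primase, RFC and PCNA in sgZ3, sgZ1 and sgC. The MCM2-7 subunits keep their order in all 3 groups, sgC is the lowest group for every MCM subunit, and PRIM1 is lowest in sgZ3.

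Among the 8 helicase activation genes 5 rose over both guides and 3 were not called. GINS2, a subunit of the GINS tetramer that joins CDC45 and MCM2-7 in the active helicase, was at 99.1, 93.4 and 75.3 CPM in sgZ3 and 70.4, 91.5 and 77 CPM in sgZ1, against 38.5, 46.3 and 38.9 CPM in sgC libraries. The lowest library of either ZNF692 guide was well above the highest sgC library, and the rise was the largest of the 49 (1.03 ± 0.12, adjusted p = 0.000218). The other GINS subunits rose less: GINS1 by 0.53 ± 0.0918 (adjusted p = 0.00153) and GINS3 by 0.46 ± 0.112 (adjusted p = 0.00985), while GINS4 was not called (0.19 ± 0.101, adjusted p = 0.169). GINS3 was at 29.7, 32.5 and 26.5 CPM in sgZ3 and 19.7, 26.4 and 22.3 CPM in sgZ1, against 18, 20.5 and 18.3 CPM in sgC libraries. Its sgZ3 libraries were the highest and sgZ1 bridged the other groups. The GINS3 call over both guides was lost without sgC replicate 1 or replicate 3, at an adjusted p of up to 0.0639.

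Per kb, GINS2 was the most abundant GINS subunit in every group, at 27.4 ± 3.8 CPM per kb in sgZ3, 24.4 ± 3.3 in sgZ1 and 12.6 ± 1.3 in sgC (SD, n = 3 each), and GINS1 came next at 9.26 ± 0.71, 8.09 ± 0.57 and 5.97 ± 0.45 in the same groups. GINS3 and GINS4 were lowest and within each other's spread in sgZ1 (4.47 ± 0.67 and 4.68 ± 0.59). Opposite-strand genes share 1290 nt of the GINS4 exons and 558 nt of the GINS3 exons, so the order of these subunits is uncertain. MCM10, which takes part in helicase activation, rose by 0.65 ± 0.149 (adjusted p = 0.00702), with a call in sgZ1 (adjusted p = 0.00316) and none in sgZ3 (adjusted p = 0.0527). The sgZ3 value was called in 6 of 20 alternatives, and sgZ3 against sgZ1 was not called (−0.39 ± 0.166, adjusted p = 0.0975). Without sgC replicate 1 the adjusted p of MCM10 over both guides was 0.055. CDC45 rose by 0.35 ± 0.112 (adjusted p = 0.0317), a call made in sgZ3 (adjusted p = 0.0113) and not in sgZ1 (adjusted p = 0.267), with sgZ3 against sgZ1 not called (adjusted p = 0.104). It was lost in 9 of 20 alternatives (adjusted p up to 0.148), those without sgZ3 replicate 1, sgZ3 replicate 2, sgZ1 replicate 2 or any 1 of the sgC libraries among them.

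Besides GINS4, both subunits of the kinase that fires origins were not called. CDC7, its catalytic subunit, was at 46.4 ± 3.48 CPM in sgZ3, 47.5 ± 6.88 CPM in sgZ1 and 47.4 ± 2.31 CPM in sgC (SD, n = 3 each; log2 −0.01 ± 0.1, adjusted p = 0.932). DBF4, the subunit that activates CDC7, was at 40.9, 43.9 and 52 CPM in sgZ3 and 51.7, 49.8 and 44.1 CPM in sgZ1, against 51.2, 50.5 and 53.1 CPM in sgC libraries. The groups overlapped and DBF4 was not called (−0.13 ± 0.0929, adjusted p = 0.281). With the 7 libraries left when both mesenchymal-transcript libraries are taken out, DBF4 was called lower over both guides (−0.22, adjusted p = 0.0198) and in sgZ3 (−0.33, adjusted p = 0.00478).

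**Figure D3:**
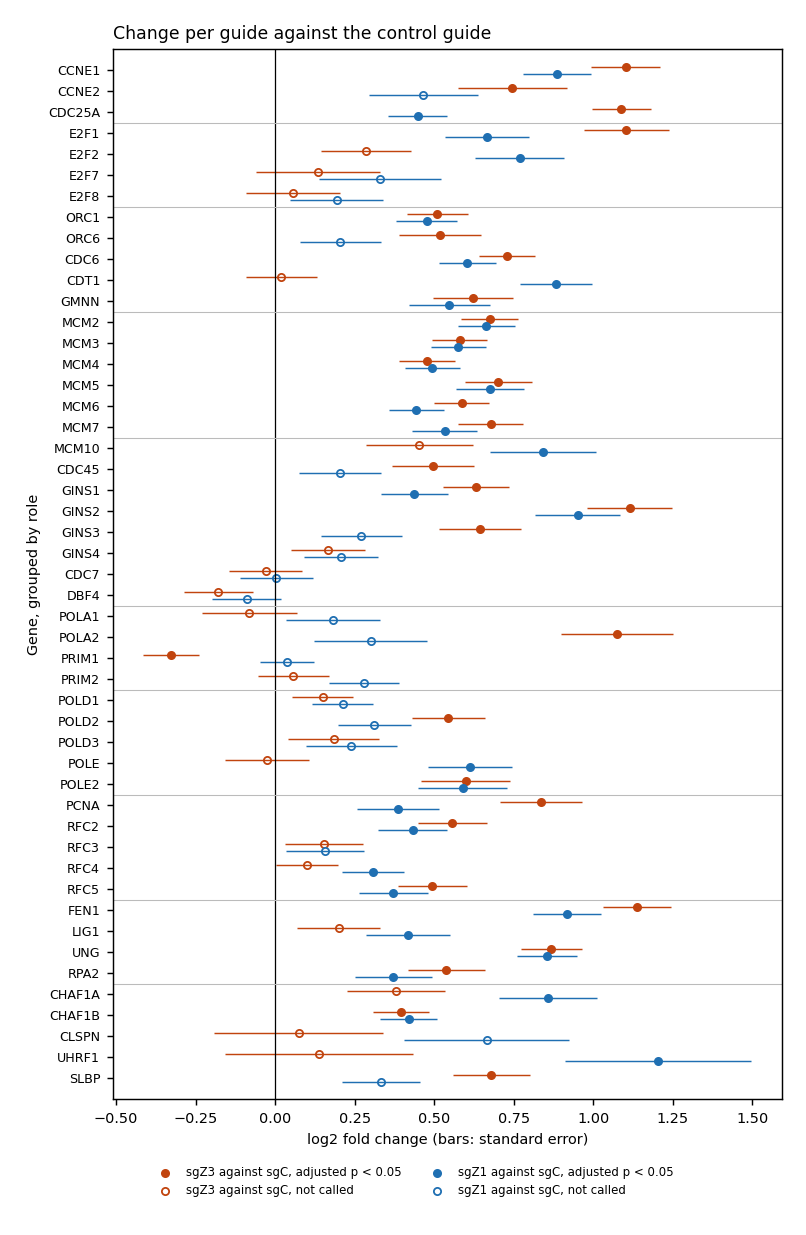
Log2 fold change of each of the 49 genes in sgZ3 against sgC (orange) and sgZ1 against sgC (blue), with SE bars and filled points for adjusted p under 0.05. The MCM2-7, CCNE1, FEN1 and UNG points lie right of 0 for both guides, CDT1, UHRF1 and POLE are filled for sgZ1 alone, and PRIM1 is filled left of 0 for sgZ3.

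Polymerase alpha-primase, the primer-making complex, did not move as one. POLA2, its regulatory subunit, was the single member of 4 called over both guides (0.69 ± 0.156, adjusted p = 0.00661), and this call came from sgZ3. POLA2 was at 18.1, 17.4 and 11.6 CPM in sgZ3 and 8.67, 9.70 and 9.07 CPM in sgZ1, against 6.33, 8.46 and 7.50 CPM in sgC libraries. No sgZ3 library overlapped either other group, and sgZ3 replicate 3 was the lowest of the 3. POLA2 was 2.11-fold higher in sgZ3 than in sgC (1.07 ± 0.176, adjusted p = 0.00121) and 1.71-fold higher in sgZ3 than in sgZ1 (0.77 ± 0.173, adjusted p = 0.00587), with 0.30 ± 0.177 in sgZ1 against sgC (adjusted p = 0.236). Without sgC replicate 1 the call over both guides was lost (adjusted p = 0.0522). Of its exon bases 2012 nt of 5726 nt are shared with AP000944.2 on the same strand, so its counts are uncertain.

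PRIM1, the catalytic primase subunit, was the one member called lower than sgC in the fit of all 9 libraries. It was at 32.1, 34 and 35.3 CPM in sgZ3 and 44.3, 44.7 and 41.7 CPM in sgZ1, against 42.5, 43.3 and 41.7 CPM in sgC libraries. Every sgZ3 library was below every other library, and sgZ1 and sgC overlapped. PRIM1 fell in sgZ3 by 0.33 ± 0.087 (log2, adjusted p = 0.013), to 0.80-fold of sgC, and was −0.365 ± 0.0869 in sgZ3 against sgZ1 (adjusted p = 0.00839). The fall in sgZ3 was lost without sgZ3 replicate 1, sgZ3 replicate 2 or sgC replicate 1, at an adjusted p of up to 0.0673, and 395 of its exon bases are shared with other genes on the same strand. POLA1, the polymerase subunit, at 38.3 ± 7.4, 46.0 ± 6.84 and 40.6 ± 4.36 CPM in sgZ3, sgZ1 and sgC (SD, n = 3 each), and PRIM2, the large primase subunit, were not called in any of the 4 comparisons with all 9 libraries. In the 7 libraries POLA1 was lower in sgZ3 than in sgC (−0.30, adjusted p = 0.0158), higher in sgZ1 than in sgC (0.27, adjusted p = 0.0297) and lower in sgZ3 than in sgZ1 (−0.57, adjusted p = 0.000105). PRIM2 was then lower in sgZ3 than in sgZ1 (−0.25, adjusted p = 0.0428). Across the other alternatives PRIM2 was called in sgZ3 against sgZ1 with library totals alone (adjusted p = 0.0429) and with length and GC offsets, and the offsets also gave a call over both guides (0.25, adjusted p = 0.0216). In sgZ1 against sgC PRIM2 was called with the offsets and without sgZ3 replicate 3.

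Of the polymerase delta and epsilon subunits, POLD2 and POLE2 rose over both guides and POLD1, POLD3 and POLE were not called. POLE2, the second subunit of polymerase epsilon, was at 22, 22.3 and 23 CPM in sgZ3 and 21.1, 26.8 and 19 CPM in sgZ1, against 14, 17 and 13.5 CPM in sgC libraries. Both ZNF692 guides were clear of sgC (0.59 ± 0.123 over both, adjusted p = 0.00415), and sgZ3 against sgZ1 was at 0.01 ± 0.138 (adjusted p = 0.965). POLD2, an accessory subunit of polymerase delta, rose by 0.43 ± 0.1 (adjusted p = 0.00776), called in sgZ3 (adjusted p = 0.00413) and not in sgZ1 (adjusted p = 0.0622). The sgZ1 value was called in 5 of 20 alternatives, the 7 libraries among them. With all 9 libraries POLD2 was not called in sgZ3 against sgZ1 (0.23 ± 0.113, adjusted p = 0.142). Its call over both guides was lost without sgC replicate 1 or replicate 3 (adjusted p up to 0.0522). POLD1, the catalytic subunit of polymerase delta, was at 145, 144 and 131 CPM in sgZ3 and 144, 134 and 161 CPM in sgZ1, against 119, 133 and 127 CPM in sgC libraries. One library of sgZ3 fell within the sgC range and the value was 0.18 ± 0.0836 (adjusted p = 0.113). In the 7 libraries POLD1 was called higher over both guides (adjusted p = 0.0156).

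POLE, the catalytic subunit of polymerase epsilon, which builds the leading strand, was high in sgZ1. It was at 40.2, 37.7 and 47 CPM in sgZ3 and 67.6, 53.3 and 73.8 CPM in sgZ1, against 40.2, 40.3 and 46.6 CPM in sgC libraries. The sgZ1 libraries were above all others, and sgZ3 and sgC covered the same range. POLE rose in sgZ1 (0.61 ± 0.132, adjusted p = 0.00527), was at −0.03 ± 0.133 in sgZ3 (adjusted p = 0.898) and was 0.64-fold in sgZ3 relative to sgZ1 (−0.64 ± 0.133, adjusted p = 0.00388), which was called in all 20 alternatives. Over both guides POLE was called in 6 of 20 alternatives, the 7 libraries among them.

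The clamp and its loader gave 3 calls over both guides for the 5 genes among the 49. RFC1, a loader subunit that is not among the 49, was not called (−0.23 ± 0.293, adjusted p = 0.565). PCNA, the sliding clamp and the most abundant of the 49 per kb of exon, was at 846, 781 and 658 CPM in sgZ3 and 506, 649.5 and 519 CPM in sgZ1, against 387, 486 and 408 CPM in sgC libraries. All sgZ3 libraries were above all sgZ1 libraries, and those above all sgC libraries. PCNA rose over both guides by 0.61 ± 0.114 (adjusted p = 0.00232), in sgZ3 by 0.84 ± 0.129 (adjusted p = 0.00089) and in sgZ1 by 0.39 ± 0.128 (adjusted p = 0.0433), the last lost in 7 of 20 alternatives (adjusted p up to 0.184). These 7 include leaving out sgZ3 replicate 2, sgZ1 replicate 2 or 3, or sgC replicate 1 or 3. GENCODE names 3 pseudogenes after PCNA, so some reads may be split among copies.

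RFC2 and RFC5, small subunits of the clamp loader, rose by 0.49 ± 0.0953 (adjusted p = 0.0028) and 0.43 ± 0.0962 (adjusted p = 0.00599). RFC3 was at 92.4, 86.8 and 86.1 CPM in sgZ3 and 85.8, 107 and 73.5 CPM in sgZ1, against 75.4, 82.4 and 80.8 CPM in sgC libraries. Its sgZ1 libraries spanned the whole range and it was not called (0.15 ± 0.106, adjusted p = 0.277). RFC4 was not called over both guides (0.20 ± 0.0854, adjusted p = 0.084), and its call in sgZ1 (0.31 ± 0.0977, adjusted p = 0.0362) was lost in 10 of 20 alternatives (adjusted p up to 0.134), among them those without sgZ3 replicate 1, sgZ3 replicate 2, sgZ1 replicate 2 and each of the sgC libraries.

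FEN1, the nuclease that trims Okazaki fragment flaps, was at 169, 163 and 156 CPM in sgZ3 and 123, 156 and 141 CPM in sgZ1, against 66.8, 80 and 75.6 CPM in sgC libraries. The ZNF692 guides were far clear of sgC, and FEN1 had the smallest adjusted p of the members over both guides (1.03 ± 0.096, adjusted p = 7.26e-05). UNG, the glycosylase that removes uracil from DNA, rose by 0.86 ± 0.0845 (adjusted p = 8.64e-05) with nearly equal values in sgZ3 (0.87) and sgZ1 (0.85). RPA2, a subunit of the single-strand binding protein, rose by 0.45 ± 0.107 (adjusted p = 0.00797), and without sgC replicate 1 the call was lost (adjusted p = 0.0576). LIG1, the ligase that joins the fragments, was at 76.1, 83.2 and 99.5 CPM in sgZ3 and 95, 88.3 and 118 CPM in sgZ1, against 68.9, 76.1 and 80.5 CPM in sgC libraries. It lay just outside the threshold over both guides (0.31 ± 0.115, adjusted p = 0.0555) and was called in 8 of 20 alternatives.

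Of the 5 chromatin assembly and checkpoint genes 3 rose over both guides. CHAF1B, a subunit of the histone chaperone CAF-1, rose in each line and over both (0.41 ± 0.0779, adjusted p = 0.00268). CHAF1A, the largest CAF-1 subunit, rose by 0.62 ± 0.136 over both (adjusted p = 0.00576), with a call in sgZ1 (adjusted p = 0.00167) and none in sgZ3 (0.38, adjusted p = 0.0717). In sgZ3 CHAF1A was called in 4 of 20 alternatives. SLBP, which binds the stem-loop of replication-dependent histone mRNAs, rose by 0.51 ± 0.108 over both (adjusted p = 0.00472), with a call in sgZ3 (adjusted p = 0.00188) and none in sgZ1 (adjusted p = 0.063). In sgZ1 SLBP was called in 5 of 20 alternatives, the 7 libraries among them. UHRF1, which brings the maintenance methyltransferase DNMT1 to newly copied DNA, was at 18.4, 22.6 and 37.5 CPM in sgZ3 and 59.2, 34.3 and 71.7 CPM in sgZ1, against 21.9, 22.5 and 27.1 CPM in sgC libraries. Its lowest sgZ1 library was replicate 2 and its highest sgZ3 library replicate 3, the libraries with mesenchymal transcripts. UHRF1 rose in sgZ1 (2.30-fold, 1.20 ± 0.293, adjusted p = 0.0132), was at 0.14 ± 0.296 in sgZ3 (adjusted p = 0.741), and was not called over both guides (adjusted p = 0.0708). Over both guides UHRF1 was called in 5 of 20 alternatives, the 7 libraries among them. Without any 1 of the sgC libraries the sgZ1 call was lost (adjusted p up to 0.0782).

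CLSPN, the mediator of CHEK1 activation at stalled forks, followed the same libraries: 7.71, 7.81 and 15.4 CPM in sgZ3 and 17.9, 11.4 and 17.7 CPM in sgZ1, against 8.86, 9.10 and 11.6 CPM in sgC libraries. The sgZ3 group split into replicates 1 and 2 below all sgC libraries and replicate 3 above them. CLSPN was not called over both guides (0.37 ± 0.23, adjusted p = 0.23), in sgZ3 (0.07 ± 0.265, adjusted p = 0.847) or in sgZ1 (0.67 ± 0.259, adjusted p = 0.0788). In the 7 libraries it was lower in sgZ3 (−0.395, adjusted p = 0.019) and higher in sgZ1 (0.84, adjusted p = 3.83e-06) than in sgC.

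The lines also differed from each other within this gene set. In sgZ3 against sgZ1, 6 members were higher and 6 lower, with a median log2 difference of 0.01, against 12.8% of all tested genes higher and 15.8% lower. The share of members called, 12 of 49, is near the background, so it is no result about these genes as a set. The balance of directions depends on the scaling: with library totals alone 3 members were higher and 8 lower, with a median of −0.097, against 7.79% of tested genes higher and 21.1% lower. Higher in sgZ3 were POLA2 (0.77), CDC25A (0.64), PCNA (0.45), E2F1 (0.44), GINS3 (0.37) and SLBP (0.35). Lower in sgZ3 were UHRF1 (−1.07), CDT1 (−0.86), POLE (−0.64), E2F2 (−0.48), CHAF1A (−0.48) and PRIM1 (−0.365). UHRF1, with an SE of 0.293 and an adjusted p of 0.0216, was the largest and the least precise of them. CDC25A, CDT1, POLA2 and POLE kept the call in all 20 alternatives, and the other 8 lost it in at least 1. The call was lost in 14 of the 20 for SLBP, 13 for GINS3, 8 for CHAF1A, 7 each for E2F1 and UHRF1, 6 each for E2F2 and PCNA, and 1 for PRIM1.

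**Figure D4:**
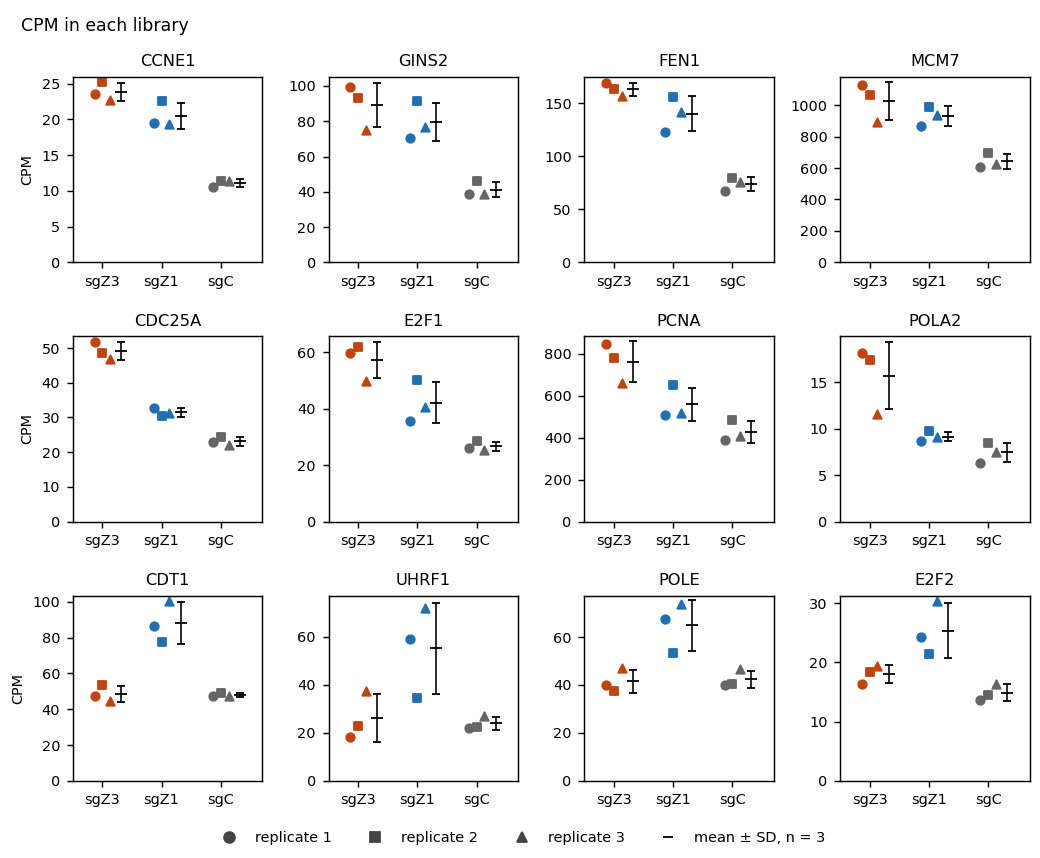
CPM in each library (points, shaped by replicate number) with mean and SD over 3 libraries for 12 members in sgZ3, sgZ1 and sgC. The upper row shows genes high in both lines, the middle row genes highest in sgZ3 (CDC25A at 46.8 to 51.8 CPM) and the lower row genes highest in sgZ1 (CDT1 at 77.5 to 101 CPM).

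The 12 calls depend on which libraries enter. With the 7 libraries left without sgZ3 replicate 3 and sgZ1 replicate 2, 16 members were higher and 13 lower in sgZ3 than in sgZ1, all 12 calls above among them, and the background was also larger, at 23.2% of tested genes higher and 29.9% lower. Called in these 7 libraries and not in all 9 were CCNE1, ORC6, MCM7, CDC45, GINS2, POLD2, RFC2, RFC5, FEN1 and RPA2, higher in sgZ3, and E2F7, E2F8, MCM10, POLA1, PRIM2, LIG1 and CLSPN, lower in sgZ3. UHRF1 was then at −1.70 and CLSPN at −1.23 (adjusted p = 6.54e-08). Without sgZ3 replicate 1 the calls were 4, and without sgZ1 replicate 1, sgZ1 replicate 3 or sgZ3 replicate 2 they were 5. In these fits the background was smaller too. Over all tested genes 1035 to 1325 were higher and 1466 to 1585 lower, against 1882 and 2327 in the fit of all 9 libraries. In sgZ3 replicate 3, 40 of the 49 members lay toward the sgZ1 libraries relative to the other sgZ3 libraries, and in sgZ1 replicate 2, 43 lay toward sgZ3; over all tested genes these shares were 73.7% and 74.4%. The part of the mesenchymal transcripts in the difference between guides was not tested.

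Gene length and base composition moved with these changes over all genes. Relative to the sgC mean, the shortest of 3 equal length classes of tested genes stood at 0.22, 0.23 and 0.05 (median log2) in sgZ3 replicates 1, 2 and 3 and the longest class at −0.29, −0.28 and −0.06. In sgZ1 the shortest class stood at 0.00, 0.14 and 0.09 and the longest class at 0.02, −0.15 and −0.02. Across 14616 tested genes the fold change over both guides had a Spearman correlation of −0.249 with exon length and 0.288 with GC content, and across the 49 members −0.165 and 0.43. The difference between sgZ3 and sgZ1 had a correlation with length of −0.428 across members and −0.221 across all genes. Genes share their libraries, so these values are descriptions. With length and GC as offsets, an alternative chosen after seeing the data, 38 members were called higher and 0 lower over both guides. Of 14616 tested genes 3094 were then higher and 2302 lower. The members' median log2 fold change was smaller with the offsets, at 0.417 against 0.493 over both guides and 0.4055 against 0.5102 in sgZ3. In sgZ3 against sgZ1 5 members were higher and 9 lower, 9 of the 12 calls among them, against 2480 and 2861 of all tested genes.

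**Figure D5:**
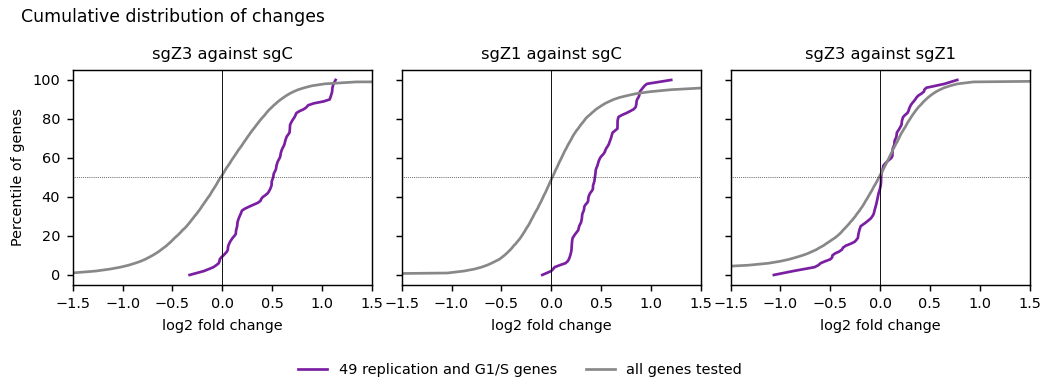
Cumulative distribution (percentile of genes, vertical) of log2 fold changes (horizontal) for the 49 members and all tested genes, in sgZ3 against sgC, sgZ1 against sgC and sgZ3 against sgZ1. The member curve lies right of the curve of all genes at its median against sgC (0.51 for sgZ3, 0.44 for sgZ1) and crosses it near 0 between the lines.

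Other genes of the pathway are described by counts and medians, which were not tested against those of the 49 members. Of 29 other replication factors 8 rose (27.6%, against 18.6% of all tested genes) and 1 fell over both guides, with a median log2 fold change of 0.11. DTL, the CUL4 adaptor that marks CDT1 for destruction in S phase, rose by 0.66 (adjusted p = 0.000308), POLE3, a small polymerase epsilon subunit, by 0.67 (adjusted p = 0.000553) and RPA1, the largest RPA subunit, by 0.51 (adjusted p = 0.000939), while POLD4, the smallest polymerase delta subunit, fell by 0.57 (adjusted p = 0.00667).

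Of 27 tested RB, D-cyclin and other E2F regulators 8 rose over both guides (29.6%, against the same 18.6%) and 4 fell, with a median of 0.11. CDKN2A is counted among these 8 by its mean over both guides (1.30, adjusted p = 0.000775), although it fell in sgZ3. E2F4, an E2F that acts with pocket proteins, rose by 0.68 (adjusted p = 0.000231) and CDK2, the partner of cyclin E, by 0.75 (adjusted p = 0.000311), and the pocket protein RBL2 fell by 0.57 (adjusted p = 0.00063), as did CDKN2B by 0.55, TFDP2 by 0.36 and CDK6 by 0.31. CDKN2A, which encodes the D-kinase inhibitor p16 and was picked out after its values were seen, was at 1.15, 0.705 and 1.22 CPM in sgZ3 and 32.3, 35.9 and 36.9 CPM in sgZ1, against 1.80, 3.16 and 2.39 CPM in sgC libraries. The 3 groups did not overlap, and CDKN2A fell in sgZ3 (−1.25 ± 0.25, adjusted p = 0.00323) and rose in sgZ1 (3.84 ± 0.192, adjusted p = 5.34e-08), the side on which CDC25A and E2F1 rose less and CDT1, E2F2, POLE and UHRF1 rose more. The part of CDKN2A in these differences was not tested.

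Genes of the S-phase checkpoint and of mitosis were counted in the same way. Over both guides, 9.09% of 11 tested checkpoint genes and 26.3% of 19 tested mitotic genes were called higher, against 18.6% of all tested genes. In sgZ3 these shares were 36.4% and 31.6%, against 19.2% of all tested genes, and in sgZ1 they were 0% and 10.5%, against 15.5%. Of the checkpoint genes 1 rose over both guides (ATRIP, the partner of ATR, by 0.32, adjusted p = 0.0184) and 2 fell (CDC25C by 0.46, adjusted p = 0.00138, and RAD17 by 0.50, adjusted p = 0.00224), with a median of 0.01. Of the mitotic genes 5 rose and 2 fell, with a median of 0.05: BIRC5 rose by 0.55 (adjusted p = 0.00313), CDC20 by 0.45 (adjusted p = 0.00464) and AURKB by 0.40 (adjusted p = 0.0212), and TTK fell by 0.32 (adjusted p = 0.0297) and KIF11 by 0.35 (adjusted p = 0.0431). Whether replication genes changed more than mitotic genes was not tested as a set.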

How the data were processed

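The authors deposited raw counts, whole numbers for each gene in each poly(A) library. Per the submitters' processing notes, the tools were STAR 2.5.2b, SAMtools 1.9, HTSeq and DESeq2, on hg38 or GRCh38. What each tool did, which annotation was counted and with which strand setting is not given in the sources used here. Titles gave the groups and replicate numbers. The description of 1 sgC library points to a table of ribosomal RNA, but both its title and its molecule are those of the poly(A) set. That ribosomal table was not used, since no member has a row in it.

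In R 4.3.3, edgeR 4.0.16 (limma 3.58.1) kept 14732 genes by filterByExpr, set TMM factors and fitted a robust quasi-likelihood model to the 9 libraries, with no term besides the group and Benjamini-Hochberg adjustment over those genes. Contrasts set the mean of sgZ3 and sgZ1, then each alone, against sgC, and sgZ3 against sgZ1. CPM values use TMM-scaled library sizes, and the common biological coefficient of variation was 12.7%. Steps were tested on simulated counts. GENCODE 29 (99.2% of tested genes found) gave lengths, GC content and overlaps, and RefSeq gave promoters. Replicates of a group differed beyond counting noise (chi-square per degree of freedom 4.19 to 32.7). The alternatives, among them DESeq2 1.42.0, are described at the end.

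The members and lists were chosen with earlier results of these data known. Values in every library are given for the highest and lowest log2 fold change in each role group and for the 5 most positive and 5 most negative sgZ3 against sgZ1 values. From other lists the text names the 3 smallest adjusted p-values and genes called in the other direction. ORC2, ORC3, ORC4, ORC5 and RFC1 are named as well, beside the members of their complexes.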

Additional observations from a re-analysis of the deposited data

Results flagged for a closer look

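The lines differed from each other, by the direct test of sgZ3 against sgZ1, in 12 members. This share is near that of all tested genes, of which 12.8% were higher and 15.8% lower, and 8 of the 12 calls were lost in at least 1 of 20 alternatives. Log2 differences above 0, higher in sgZ3, were POLA2 at 0.774, CDC25A at 0.6406, PCNA at 0.4487, E2F1 at 0.4383, GINS3 at 0.3733 and SLBP at 0.3474. Log2 differences below 0, lower in sgZ3, were UHRF1 at −1.0659, CDT1 at −0.8631, POLE at −0.6389, E2F2 at −0.4827, CHAF1A at −0.4778 and PRIM1 at −0.365. With 3 libraries per group, no gap test for a single far value of a gene was run; sgZ3 replicate 3 and sgZ1 replicate 2, which stood apart by their mesenchymal transcripts, are treated with the results.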

How the results depend on the processing

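Of the calls over both guides against sgC, 24 of 33 were made under all 20 alternatives, as were 27 of 30 in sgZ3, 21 of 30 in sgZ1 and 4 of 12 in sgZ3 against sgZ1. Of the uncalled members, 10 of 16 over both guides and 9 of 19 in sgZ1 were called, with the same sign, in at least 1 alternative. In sgZ3 this held for 4 of 19, and in sgZ3 against sgZ1 for 18 of 37. Members higher over both guides numbered 24 to 35, in sgZ3 27 to 30 and in sgZ1 21 to 35 when 1 library was left out, the fewest over both guides and in sgZ1 without sgC replicate 1. Over all tested genes the numbers higher also moved. They were 1360 to 3303 over both guides, 1774 to 3393 in sgZ3 and 1442 to 2824 in sgZ1. Members called in sgZ3 against sgZ1 numbered 12, and 5 at a false discovery rate under 0.01, 6 in a fit of the compared groups only, 29 without both mesenchymal-transcript libraries, and 4 to 17 when 1 library was left out. Over all tested genes 1035 to 2871 were higher and 1466 to 3282 lower when 1 library was left out. At a false discovery rate under 0.01 they were 927 and 1327, and in the fit of the compared groups only 1314 and 1719. Fewer samples or a stricter threshold are part of these settings, and otherwise the cause was not tested. A value was counted as reversed if its sign changed and it was called in the main fit or in the alternative. Such values were POLD1 in sgZ3 against sgZ1 with length and GC offsets (0.327, against −0.06) and CLSPN in sgZ3 against sgC in the 7 libraries (−0.395, against 0.07). Values called in neither also changed sign, such as UHRF1 in sgZ3 against sgC (−0.261 at the lowest, against 0.14).

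Library totals alone moved the median of all genes to −0.17 in sgZ3 against sgC and −0.12 in sgZ3 against sgZ1, and lowered the share of all calls over both guides that were higher to 36.6% (45.9% with upper-quartile factors), against 56%; 31 members were still higher and 1 lower over both guides. Same-numbered libraries deviated together (r over 0.1) in 2 of 9 pairs. Their r ran from −0.126 to 0.205, against −0.21 to 0.162 for other pairs. These ranges overlap, so whether the numbers pair samples cannot be decided from them. With the replicate block 36 members were higher over both guides, 31 in sgZ3 and 34 in sgZ1, and 14 were called in sgZ3 against sgZ1. Of 14732 tested genes, 2973 were then higher over both guides, 3058 in sgZ3 and 2484 in sgZ1. In sgZ3 against sgZ1 2268 were higher and 2737 lower. The standard errors over both guides were largest for UHRF1, CLSPN, E2F7 and POLA2, and the last 3 are among the members with the fewest counts. Where a line was left with 2 libraries, the fit pooled the spread over groups.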
